A study of Mus musculus with 2 samples.

Results

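This report describes 8 genes of iron storage, iron export and haem handling in the stroma of mouse epididymal fat: Fth1, Ftl1, Slc40a1, Hmox1, Blvrb, Tfrc, Cp and Slc11a1. They were chosen by name for their known roles, with earlier results of these data known, as 8 of the 27998 genes listed in each count table. The shares of all genes printed beside counts of the 8 are therefore a description and not a test of the list. All 8 had UMIs in both libraries.

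The study fed male C57BL/6J mice a low-fat diet (LFD) or a high-fat diet (HFD) for 24 wk from 6 wk of age and profiled stromal vascular cells of epididymal fat by droplet single-cell RNA sequencing. All mice were of the same strain and no gene was altered. There was 1 library per diet, and how many mice each held is not given in the sources used here. The diet of each library was taken from its diet label, as the growth text attached to both libraries names the low-fat diet. With 1 library per diet, no difference below has a replicate check, and diet cannot be told apart from any other difference between the 2 libraries. All 95% intervals cover counting error only, of UMIs for levels and ratios and of cells for shares of cells. None covers differences between libraries.

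Iron that enters a cell is held inside ferritin, a shell built from heavy (Fth1) and light (Ftl1) subunits, and it leaves through ferroportin (Slc40a1), the only known exporter of iron from animal cells. Macrophages take up old red cells, break down their haem with haem oxygenase and return the iron to plasma transferrin, and in fat the resident macrophages are among the cells that take part in local iron handling. When cells lack iron, regulatory proteins bind stem-loops called iron-responsive elements, which blocks translation when the element lies in the 5′ UTR and protects the mRNA when it lies in the 3′ UTR.

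These elements are shown because they divide the 8 genes by how iron acts on their mRNA, and because a UMI count reads mRNA and not the translation that a 5′ element controls. The motif searched was CNNNNNCAGTGN followed by 5 bases that pair with the 5 after the first C, with G-T pairs allowed, on the sense strand of coding transcripts of GENCODE M21 (GRCm38). It was found in the 5′ UTR of 28 of 20561 genes (0.136%), of which 3 were members, and in the 3′ UTR of 127 of 20937 genes (0.607%), of which 1 was a member. The 6 bases of the loop are in capitals.
Fth1, 5′ UTR, chr19:9982731-9982760, plus strand: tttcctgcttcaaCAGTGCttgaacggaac
Ftl1, 5′ UTR, chr7:45459779-45459808, minus strand: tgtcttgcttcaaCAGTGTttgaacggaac
Slc40a1, 5′ UTR, chr1:45925465-45925494, minus strand: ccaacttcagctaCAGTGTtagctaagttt
Tfrc, 3′ UTR, chr16:32631218-32631247, plus strand: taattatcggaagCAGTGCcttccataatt
Tfrc, 3′ UTR, chr16:32631597-32631626, plus strand: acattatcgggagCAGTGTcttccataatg
Tfrc, 3′ UTR, chr16:32631662-32631691, plus strand: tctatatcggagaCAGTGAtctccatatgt
Tfrc, 3′ UTR, chr16:32631709-32631738, plus strand: taattatcgggaaCAGTGTttcccataatt
The ferritin genes and ferroportin each had 1 match, and Tfrc had 4. A match is a description of letters, and binding was not measured here. No match was found in Hmox1, Blvrb, Cp or Slc11a1, which says only that these letters were absent from the UTRs searched.

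The LFD library held 1113 barcodes with 7356278 UMIs and the HFD library 1144 barcodes with 8412325 UMIs, and they shared 0 barcodes. Of these barcodes, 1057 and 1117 had at least 200 genes and were classed by raw UMIs. Fibroblasts had at least 10 Dcn UMIs, endothelial cells at least 3 Cdh5 and Cldn5 UMIs together, and macrophages at least 10 UMIs of the complement genes C1qa, C1qb and C1qc. This gave 230 LFD and 321 HFD macrophages, 377 and 293 fibroblasts, and 149 and 207 endothelial cells. Barcodes past more than 1 gate, 14 and 26 of them, were left out. T cells, 72 and 21, served as cells not known for ferroportin. Median UMIs per cell were 6328 and 6915 in macrophages, 8500 and 7908 in fibroblasts, 6486 and 5804 in endothelial cells and 2764.5 and 1781 in T cells. The macrophage class carried Adgre1 at 441 CPM in LFD and 442 CPM in HFD, Csf1r at 974 and 565 CPM, Mrc1 at 1907 and 921 CPM and Cd68 at 536 and 967 CPM, with fibroblast markers at 48.4 and 23.6 CPM and, of the dendritic list, only Cd209a above 0. Erythroid markers were at 45.1 and 115 CPM in macrophages, and without barcodes of 10 or more haemoglobin UMIs the same number of members, 6, was past the diet fold used below. Fibroblasts carried their markers at 6913 and 14866 CPM and endothelial cells theirs at 5839 and 5758 CPM. The fibroblast class also carried mesothelial markers at 477 and 260 CPM and the monocyte list at 96.2 and 67.5 CPM, whose part in its values was not tested. The endothelial class also carried mural markers at 1506 and 1648 CPM, mainly Rgs5, whose part in its values was not tested, and erythroid markers at 7699 and 6272 CPM. CPM here is a gene's share of all UMIs in the cells of a class, in parts scaled so that all genes of the class sum to 1e6.

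Ferritin mRNA was present in every class, stood higher in HFD than in LFD macrophages, and differed less between the libraries in fibroblasts and endothelial cells. Fth1 (ENSMUSG00000024661, chr19:9980598-9985098, plus strand) encodes the heavy subunit, which oxidises iron as it enters the shell. In macrophages it had 10161 UMIs in LFD and 35316 in HFD, which is 6836 CPM (6704 to 6971) and 12067 CPM (11941 to 12193), or 1.77-fold higher in HFD (1.73 to 1.80). In fibroblasts Fth1 stood at 7483 and 7000 CPM, a ratio of 0.936 (0.917 to 0.954). In endothelial cells it stood at 3286 and 3030 CPM, a ratio of 0.922 (0.884 to 0.962). Its LFD level in macrophages was therefore 0.914 of that in fibroblasts, while its HFD level was 1.72 times that in fibroblasts.

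Ftl1 (ENSMUSG00000050708, chr7:45457944-45459884, minus strand) encodes the light subunit, which helps the iron core form. Macrophages carried 15434 UMIs in LFD and 54412 in HFD, or 10384 CPM (10221 to 10549) and 18591 CPM (18435 to 18748), a ratio of 1.79 (1.76 to 1.82). Fibroblasts carried it at 3902 and 4063 CPM (ratio 1.04) and endothelial cells at 2047 and 2103 CPM (ratio 1.03). T cells had 734 and 61 Ftl1 UMIs, or 2238 and 1299 CPM, a ratio of 0.581 (0.440 to 0.754), which became 0.932 (0.585 to 1.44) after thinning to 1000 UMIs per cell. Of genes high in macrophages, T cells held 15 and 0 Hmox1, 21 and 0 Slc11a1, 15 and 1 Tfrc and 5 and 1 Blvrb UMIs. What part RNA of other cell types had in the T cell values was not tested. Light-chain mRNA was higher in macrophages than in fibroblasts in both libraries, 2.66-fold in LFD and 4.58-fold in HFD. UMIs of the ferritin copies Ftmt and Fthl17a to Fthl17f numbered 0 in both libraries. The files do not show how reads that match processed ferritin pseudogenes were counted.

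The balance of the subunits differed more between classes than between diets. Each Fth1 UMI came with 1.52 Ftl1 UMIs in LFD macrophages (1.48 to 1.56) and 1.54 in HFD macrophages (1.52 to 1.56). In fibroblasts the ratio was 0.522 (0.510 to 0.533) and 0.580 (0.566 to 0.595), and in endothelial cells 0.623 (0.593 to 0.654) and 0.694 (0.663 to 0.727), so it was somewhat higher in HFD in both. Together the subunits made up 1.72% of all macrophage UMIs in LFD and 3.07% in HFD. The same share was 1.14 and 1.11% in fibroblasts and 0.533 and 0.513% in endothelial cells.

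Ferroportin mRNA came mainly from macrophages, which held 85.9% of its UMIs in LFD and 77.6% in HFD, and was lower in HFD macrophages. Slc40a1 (ENSMUSG00000025993, chr1:45908068-45926523, minus strand) had 116 macrophage UMIs in LFD and 52 in HFD, or 78.0 CPM (64.5 to 93.6) and 17.8 CPM (13.3 to 23.3), a ratio of 0.228 (0.161 to 0.318). Fibroblasts held 6 and 5 UMIs and endothelial cells 4 and 5. At least 1 UMI was seen in 52 of 230 LFD macrophages (22.6%, 17.4 to 28.6) and in 29 of 321 HFD macrophages (9.03%, 6.13 to 12.7). The share was 0 of 72 in LFD T cells, which were shallower and allow up to 4.17%. After each cell was thinned to 1000 UMIs the macrophage shares were 4.89% (2.47 to 8.58) and 3.12% (1.51 to 5.67), and LFD T cells had 0 of 69, which allows up to 4.35%, a limit that lies within both macrophage intervals.

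A single LFD macrophage carried 40 of the 116 ferroportin UMIs, while the next highest LFD cell had 5 and the highest HFD cell 6. That cell had 12897 UMIs, 3253 genes and 11.4% mitochondrial UMIs. It also had the most Hmox1 UMIs of any LFD macrophage (61) and the highest ferritin share of its class (4.97%), with 10 UMIs of Cd163, the haemoglobin scavenger receptor, and 0 haemoglobin UMIs. Without it, LFD macrophages stood at 51.6 CPM and the HFD to LFD ratio of Slc40a1 was 0.344 (0.237 to 0.497).

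Ceruloplasmin, the copper ferroxidase that prepares exported iron for transferrin, came mainly from fibroblasts. Cp (ENSMUSG00000003617, chr3:19957054-20009145, plus strand) had 1415 fibroblast UMIs in LFD and 879 in HFD, 448 and 358 CPM, a ratio of 0.799 (0.733 to 0.869). Mesothelial markers in this class were also lower in HFD, at 477 and 260 CPM, and their part in the Cp values was not tested. Fibroblasts gave 86.4% of all Cp UMIs of barcodes with at least 200 genes in LFD and 82.9% in HFD. Macrophages held 84 and 64 Cp UMIs, 56.5 and 21.9 CPM, a ratio of 0.387 (0.275 to 0.542). Macrophages held 59 and 35 UMIs of the fibroblast gate gene Dcn, which the gates keep under 10 in any macrophage. Per 100 Dcn UMIs there were 142 and 183 Cp UMIs in macrophages and 2.26 and 2.11 in fibroblasts. Macrophages with 0 Dcn UMIs, 191 and 287 cells, carried 66 of the 84 and 58 of the 64 Cp UMIs. In endothelial cells Cp had 29 and 56 UMIs, a ratio of 1.73 (1.09 to 2.81), and 5 cells held 15 and 25 of these. That ratio turned below 1 when barcodes past more than 1 gate were kept or when cells were weighted equally.

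The enzymes that take haem apart were macrophage genes as well, and the first of them was lower in HFD macrophages. Hmox1 (ENSMUSG00000005413, chr8:75093621-75100589, plus strand), the inducible haem oxygenase that frees iron from haem, had 627 and 712 macrophage UMIs, 422 CPM (389 to 456) and 243 CPM (226 to 262), a ratio of 0.577 (0.517 to 0.643). Fibroblasts carried Hmox1 at 39.2 and 49.2 CPM (ratio 1.25, 0.969 to 1.62) and endothelial cells at 39.0 and 40.5 CPM. Blvrb (ENSMUSG00000040466, chr7:27447978-27466144, plus strand), a biliverdin and flavin reductase, stood at 575 and 463 CPM in macrophages, a ratio of 0.804 (0.738 to 0.877) that did not reach 1.5-fold. Its levels were 178 and 163 CPM in fibroblasts and 86.4 and 89.2 CPM in endothelial cells.

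The transferrin receptor was lower in HFD macrophages, and the phagosomal metal transporter was not past the fold. Tfrc (ENSMUSG00000022797, chr16:32608920-32632794, plus strand) brings transferrin-bound iron into the cell. It had 226 and 192 macrophage UMIs, 152 CPM (133 to 173) and 65.6 CPM (56.7 to 75.6), a ratio of 0.431 (0.354 to 0.525). Endothelial cells had 27 and 21 Tfrc UMIs and fibroblasts 6 and 7. Slc11a1 (ENSMUSG00000026177, chr1:74375195-74386062, plus strand), also called Nramp1, carries iron and manganese out of the phagosome. It stood at 152 and 177 CPM in macrophages, a ratio of 1.16 (0.994 to 1.37), with 15 and 8 UMIs in fibroblasts and 7 and 8 in endothelial cells.

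**Figure D1:**
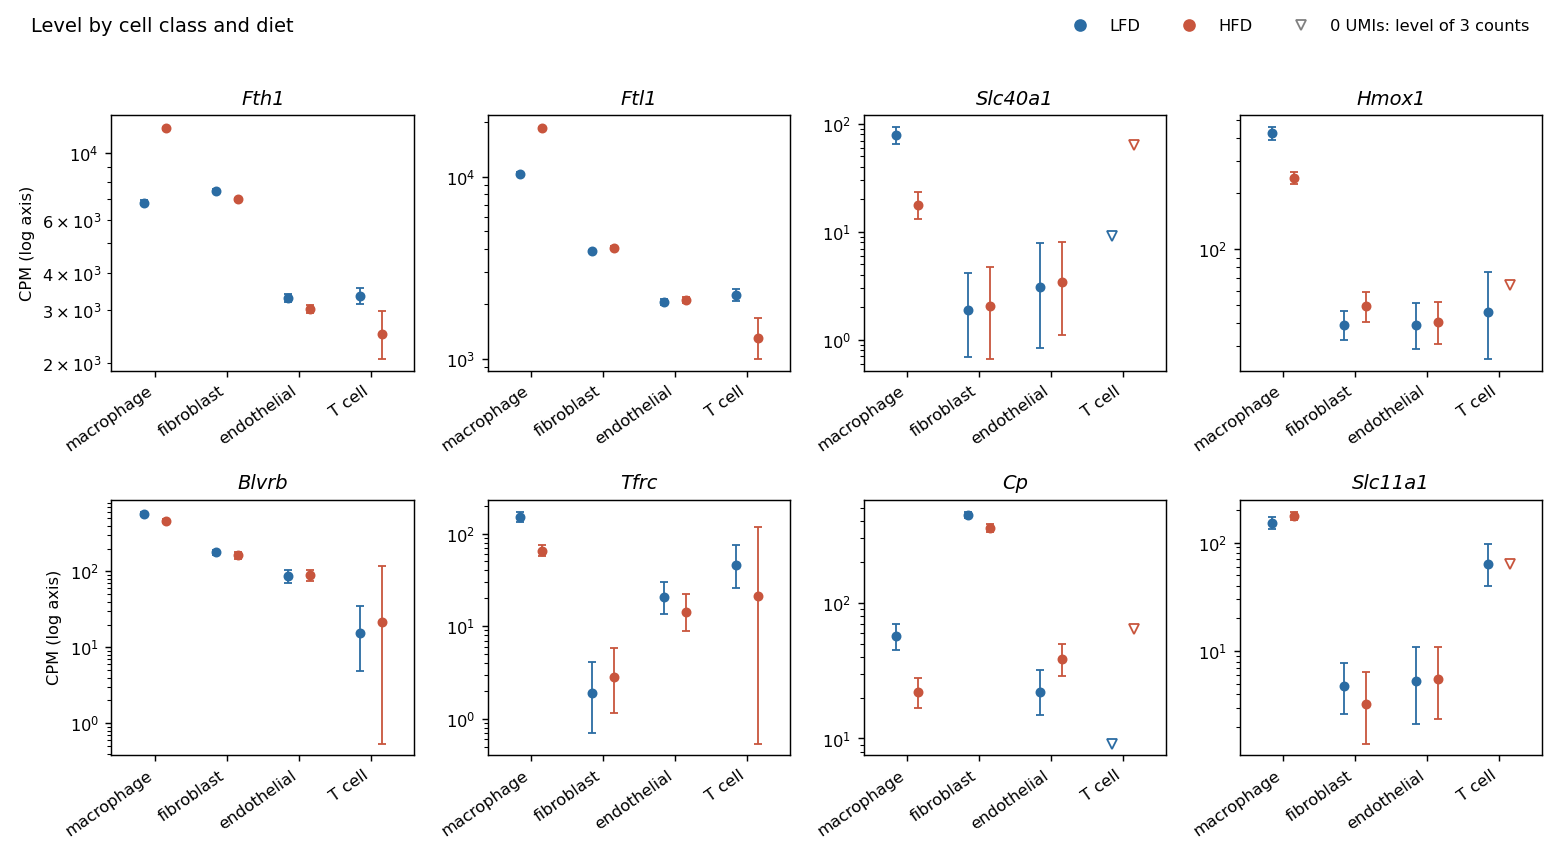
Level of each of the 8 genes (CPM of the class, log axis) in macrophages, fibroblasts, endothelial cells and T cells of the LFD (blue) and HFD (red) library, with 95% Poisson intervals. Open triangles mark 0 UMIs, drawn at the level that 3 counts would give, which for the 21 HFD T cells is 63.9 CPM. Apart from these limits, all panels but those of Fth1 and Cp peak in macrophages in both diets, Fth1 does so in HFD, and Cp peaks in fibroblasts at 448 and 358 CPM.

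Read across classes, 6 of the 8 genes (Ftl1, Slc40a1, Hmox1, Blvrb, Tfrc and Slc11a1) were at least 2-fold higher in macrophages than in both fibroblasts and endothelial cells in both libraries, and 0 were lower. Over 10908 genes the same was true of 7.61%, and 12.1% were lower. Against fibroblasts, Tfrc was 80.1-fold higher in LFD and 23.0-fold in HFD, on 6 and 7 fibroblast UMIs. Slc11a1, on 15 and 8 fibroblast UMIs, was 32.0-fold and 54.4-fold higher. Hmox1 was 10.8-fold and 4.94-fold higher, and Blvrb 3.23-fold and 2.84-fold. Macrophages supplied 44.1% of Ftl1 UMIs in LFD and 69.7% in HFD, and 23.5% and 54.1% of Fth1 UMIs.

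Between diets, a gene was counted when it had at least 50 UMIs in the compared cells and a ratio of at least 1.5 in either direction. In macrophages 2 of 8 genes were higher in HFD, Fth1 and Ftl1, beside 14.7% of 7158 genes. Lower were 4 of 8 genes, Slc40a1, Hmox1, Tfrc and Cp, beside 16.9%. With each cell thinned to 1000 UMIs, Fth1 and Ftl1 were both within the fold at 1.45, Tfrc was within it at 0.703, Hmox1 was past it at 0.642, and Slc40a1 and Cp had under 50 UMIs. The median log2 ratio was -0.55 over the 8 genes and -0.014 over all genes tested. Under the upper limits on genes and mitochondrial UMIs that the methods of the study set, 49 LFD and 73 HFD macrophages were left and ferritin was within the fold, at log2 ratios of 0.51 for Fth1 and 0.27 for Ftl1. There 3 of 6 genes with enough UMIs were lower, Blvrb, Tfrc and Slc11a1, beside 13.5% of 1965 genes, and 0 were higher, beside 20.4%. In fibroblasts 0 of 5 genes with enough UMIs passed in either direction, beside 4.89% higher and 8.99% lower of all genes. In endothelial cells 1 of 5, Cp, was higher, beside 4.76%, and 0 were lower, beside 4.3%. With barcodes of 10 or more haemoglobin UMIs left out, 143 and 195 endothelial cells remained and Cp was again the 1 gene past the fold, at a log2 ratio of 0.84.

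**Figure D2:**
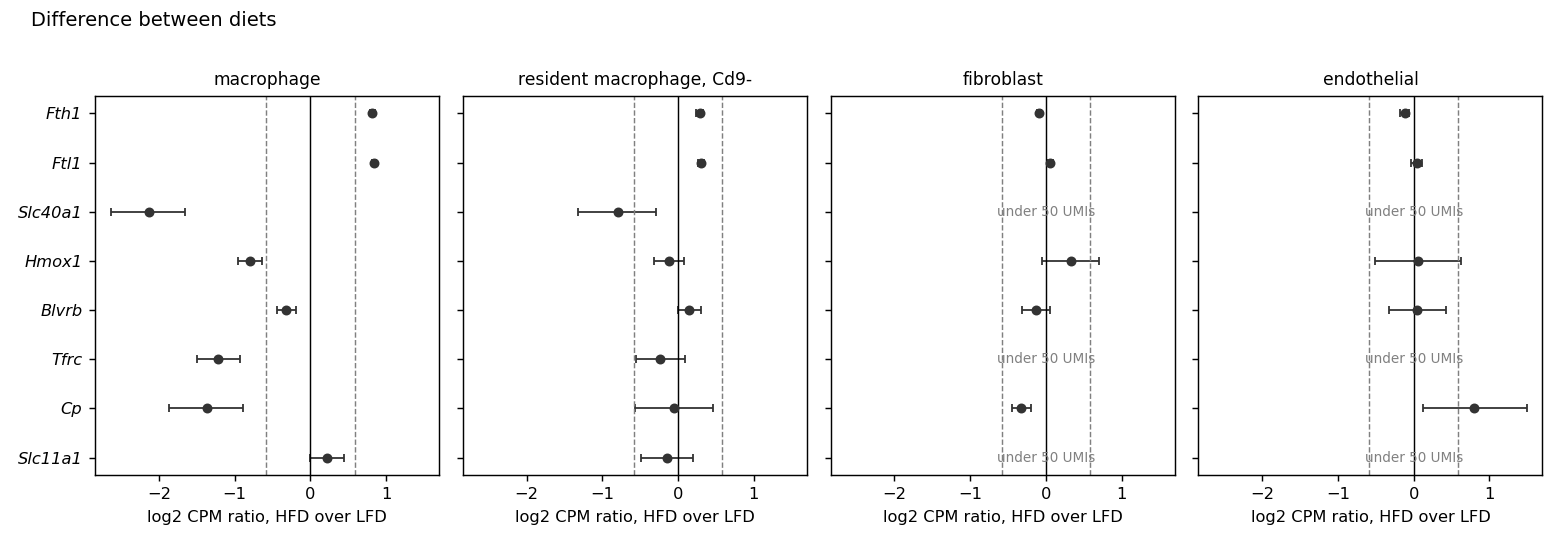
Ratio of HFD to LFD level (log2) of the 8 genes, with 95% intervals for counting error, in macrophages, Cd9- resident macrophages, fibroblasts and endothelial cells. Dashed lines mark 1.5-fold. Ferritin lies above the upper line in the macrophage class at ratios of 1.77 and 1.79 and between the lines in the other 3 panels.

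The macrophage class did not hold the same cells in both libraries. Macrophages past the resident gate, at least 3 UMIs of Cd209f, Cd209d, Fcna and Folr2 together, made up 205 of 230 macrophages in LFD (89.1%) and 173 of 321 in HFD (53.9%). They are called resident macrophages by this gate alone. Macrophages with a UMI of Cd9, a tetraspanin of lipid-associated macrophages, numbered 4 in LFD and 117 in HFD. Cd9 was not particular to macrophages, at 509 and 553 CPM in fibroblasts and 213 and 165 CPM in endothelial cells. Among those past the resident gate 2 LFD and 47 HFD cells had Cd9, and among the others 2 and 70 had it. Because of these shares, each gene was read again within subsets.

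Within all macrophages past the resident gate the same genes were past 1.5-fold as in the class, 2 higher (background 15.6%) and 4 lower (background 15.6%). The HFD side here includes the 47 cells with Cd9, which are set aside in the next paragraph. Fth1 stood at 7041 and 11529 CPM (ratio 1.64) and Ftl1 at 10813 and 19120 CPM (ratio 1.77). Slc40a1 stood at 89.3 and 29.1 CPM (ratio 0.326, 0.229 to 0.458), Tfrc at 170 and 90.2 CPM (ratio 0.530) and Cp at 63.9 and 33.2 CPM (ratio 0.519). Hmox1 was at 457 and 285 CPM, a ratio of 0.623 (0.551 to 0.703). Without the 1 cell rich in ferroportin, the Slc40a1 ratio was 0.493 (0.338 to 0.713). That of Hmox1 was then 0.687 (0.606 to 0.778), which is within the fold. Thinned to 1000 UMIs per cell, no gene with at least 50 thinned UMIs was past 1.5-fold in resident macrophages. Fth1 and Ftl1 then had a ratio of 1.45 each, Hmox1 0.738 (0.529 to 1.025) and Tfrc 1.01 (0.591 to 1.70). Under the limits of the study's methods, 40 and 24 resident cells were left and Slc11a1 alone was past the fold, at a log2 ratio of -1.02.

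When resident macrophages with a Cd9 UMI were set aside, leaving 203 LFD and 126 HFD cells, most of these differences were smaller. Ferritin was 1.22-fold higher for Fth1 (7032 to 8576 CPM, 1.18 to 1.26) and 1.23-fold for Ftl1 (10816 to 13329 CPM, 1.20 to 1.26). Erythroid markers were at 48.3 and 252 CPM in these cells, and their part in these values was not tested. Hmox1 stood at 455 and 419 CPM (ratio 0.921, 0.805 to 1.05), and Tfrc at 171 and 145 CPM (ratio 0.850, 0.677 to 1.06). Cp was at 64.6 and 62.4 CPM, a ratio of 0.965 (0.672 to 1.38). The recycling enzyme Blvrb was at 648 and 717 CPM (ratio 1.11) and Slc11a1 at 149 and 135 CPM (ratio 0.904). Slc40a1, with 116 and 45 UMIs, was at 90.3 and 52.0 CPM, a ratio of 0.576 (0.399 to 0.819). In these cells 0 of 8 genes were higher, beside 5.95% of 5021 genes, and 1 was lower, beside 8.82%. That 1 gene, ferroportin, rested on the single cell described above. Without it the levels were 59.7 and 52.0 CPM, the ratio was 0.870 (0.588 to 1.27), and 0 of 8 genes were past 1.5-fold. The share of cells with a ferroportin UMI was 25.6% (19.8 to 32.2) in LFD and 18.3% (11.9 to 26.1) in HFD, and 5.45% and 5.56% after thinning.

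The 47 HFD macrophages past the resident gate that had Cd9 differed from the 126 without it in all 8 genes. Ferritin and the phagosomal transporter were higher with Cd9: Fth1 at 14532 against 8576 CPM (1.69-fold, 1.65 to 1.74), Ftl1 at 25008 against 13329 CPM (1.88-fold, 1.83 to 1.92) and Slc11a1 at 234 against 135 CPM (1.73-fold, 1.37 to 2.19). That is 3 of 8 genes, beside 20.6% of 4283 genes. Of the UMIs in the 47 cells, the top 5 cells for each gene held 36.4% for Fth1, 43.0% for Ftl1 and 44.2% for Slc11a1. The median share of UMIs per cell was 1.20% against 0.805% for Fth1 and 2.20% against 1.24% for Ftl1. The genes of export, haem breakdown and uptake, 5 of 8 beside 20.1%, were lower with Cd9. Slc40a1 had 5 against 45 UMIs, a ratio of 0.113 (0.0350 to 0.284), and Cp 3 against 54, a ratio of 0.0565 (0.0113 to 0.174). Tfrc stood at 34.0 against 145 CPM (ratio 0.234), Hmox1 at 148 against 419 CPM (ratio 0.353, 0.286 to 0.433) and Blvrb at 390 against 717 CPM (ratio 0.544).

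These cells met the resident gate by raw count, yet they carried its genes weakly. The 4 gate genes summed to 783 CPM with Cd9 and 5805 CPM without, and the C1q genes to 8473 and 17218 CPM. Their median depth was 11123 UMIs against 6563, and in a deeper cell a fixed number of gate UMIs, or 1 Cd9 UMI, is reached at a lower level. They are therefore described by their counts and not as resident cells. T cell and monocyte markers were at 0 UMIs with Cd9. The dendritic list, of which only Cd209a had UMIs, was at 7.04 CPM with Cd9 and 234 CPM without, and the erythroid list at 36.4 and 252 CPM. Thinned to 1000 UMIs per cell, the ratio was 1.68 for Fth1, 1.68 for Ftl1, 0.397 for Hmox1 (0.163 to 0.840) and 0.199 for Tfrc on 29 UMIs. For Blvrb it was 0.627 (0.353 to 1.06). For Slc11a1 it was 1.10 (0.445 to 2.48), on 22 UMIs without Cd9 and 9 with it. That interval includes the 1.73 of the sums, so thinning cannot show whether the Slc11a1 difference held.

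**Figure D3:**
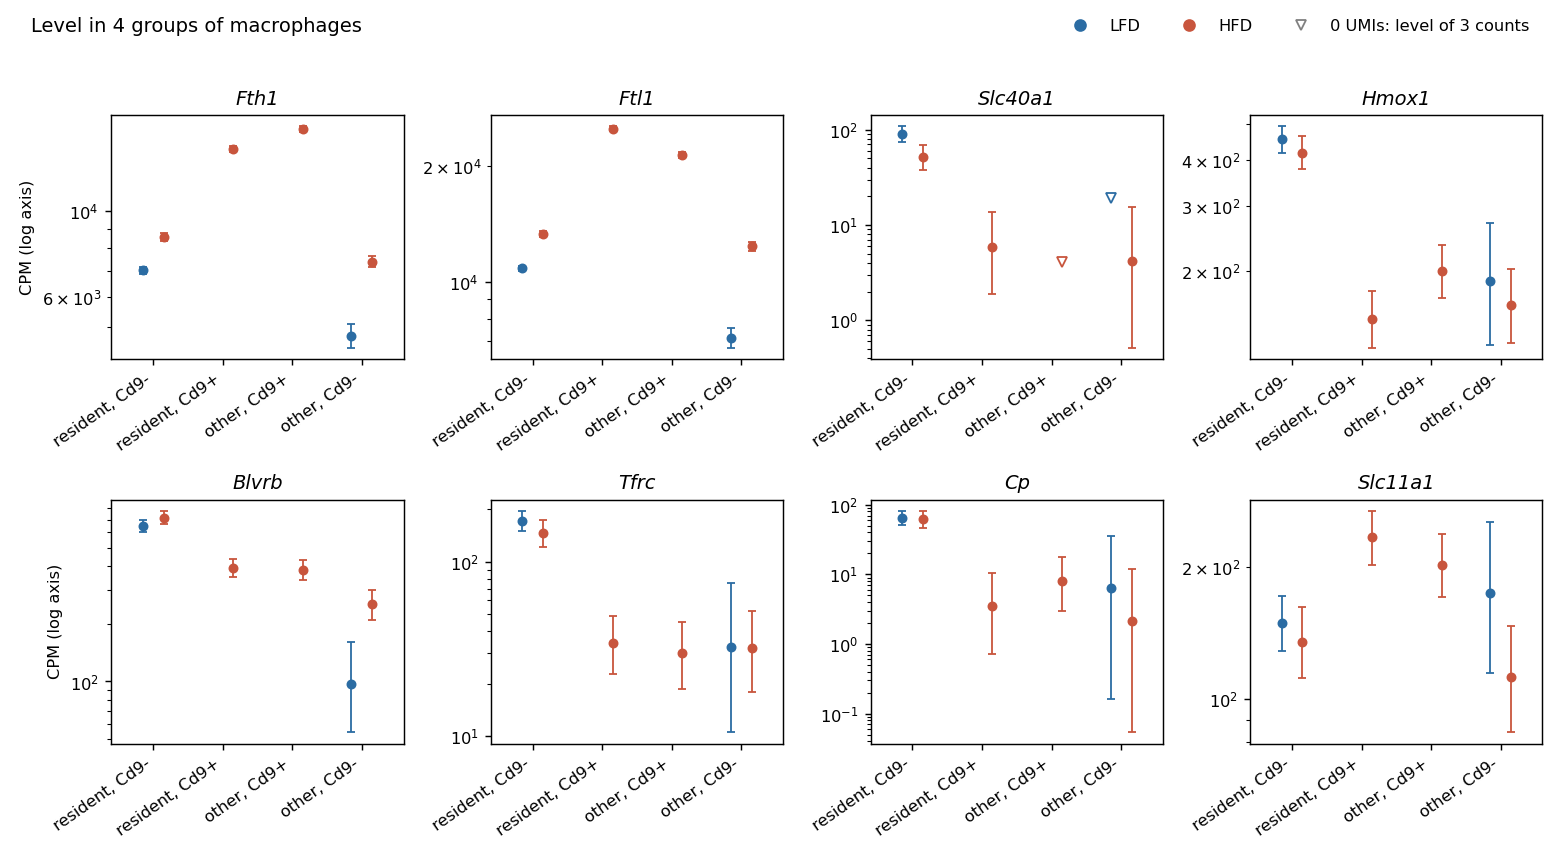
Level of the 8 genes (CPM, log axis, 95% Poisson intervals) in macrophages split by the resident gate and by Cd9, in LFD (blue) and HFD (red). The LFD groups with Cd9, of 2 cells each, are not drawn. Among HFD cells past the resident gate, ferroportin is at 52.0 CPM without Cd9 and 5.87 CPM with it, while Ftl1 is at 13329 and 25008 CPM.

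Outside the resident gate, HFD macrophages with Cd9 (70 cells) had 0 ferroportin UMIs, which allows up to 4.07 CPM, beside 52.0 CPM in the 126 resident macrophages without Cd9. Relative to those 126 cells, 2 of 7 genes with enough UMIs were higher, Fth1 at 16309 CPM (1.90-fold, 1.85 to 1.96) and Ftl1 at 21352 CPM (1.602-fold, 1.56 to 1.64), beside 18.1% of 4098 genes. Lower were 4 of 7, beside 17.7%. These were Hmox1 (ratio 0.476, 0.390 to 0.578), Blvrb (0.534), Tfrc (0.205) and Cp (0.131). Thinned to 1000 UMIs per cell, ferritin was within the fold in this comparison, with Fth1 at a ratio of 1.44 (1.31 to 1.58) and Ftl1 at 1.35 (1.26 to 1.46), while Hmox1 was at 0.533 (0.285 to 0.946). The median Fth1 share of UMIs per cell was 0.820% in the 70 cells and 0.805% in the 126. For Ftl1 these medians were 1.40% and 1.24%. A single HFD macrophage outside the resident gate held 3185 Fth1 UMIs, so the summed Fth1 level does not describe a typical cell. Against all 173 cells past the resident gate, which include the 47 with Cd9, 0 of 8 genes were higher, beside 8.64%, and 3 were lower, Slc40a1, Tfrc and Cp, beside 12.2%. Relative to the 78 HFD macrophages with neither Cd9 nor the resident genes, 4 of 5 genes with enough UMIs were higher, beside 12.8%, and 0 lower, beside 9.67%. These were Fth1 (2.21-fold), Ftl1 (1.73-fold), Slc11a1 (1.80-fold, 1.31 to 2.51) and Blvrb (1.52-fold, 1.22 to 1.90), while Hmox1 was at 199 against 161 CPM. After thinning, Fth1 stayed past the fold at 1.72-fold (1.54 to 1.91), and Ftl1 at 1.48 (1.36 to 1.62) was within it. Slc11a1 was then at 1.47 (0.446 to 5.13), on 6 UMIs without Cd9 and 8 with it. Blvrb was at 1.39 (0.730 to 2.68), on 19 and 24 UMIs. Both had too few thinned UMIs to be counted as past or within the fold. In LFD only 2 such Cd9+ cells were found. Against these 2 cells, 5 of 5 genes with enough UMIs were higher in HFD, beside 35.7% of 2217 genes, and 0 lower, beside 19.4%, and nothing is read from this.

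The macrophages with neither Cd9 nor the resident genes numbered 23 in LFD and 78 in HFD. Ferritin was higher in HFD in them too, Fth1 at 4752 and 7396 CPM (1.56-fold, 1.44 to 1.69) and Ftl1 at 7134 and 12353 CPM (1.73-fold, 1.62 to 1.85). Blvrb, with 15 and 119 UMIs, was 2.60-fold higher (1.52 to 4.80), and Slc11a1, with 27 and 53 UMIs, had a ratio of 0.644 (0.398 to 1.07). So 3 of 5 genes were higher, beside 14.6%, and 1 was lower, beside 12.6%. The LFD side rests on 23 cells. Within LFD, resident macrophages had 6.68 times the Blvrb level of these cells (4.02 to 11.98) and 2.44 times their Hmox1 level (1.68 to 3.68). Within HFD the same ratios were smaller, 2.20 for Blvrb (1.82 to 2.68) and 1.77 for Hmox1 (1.39 to 2.28).

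Depth was not even over the macrophages, and the ferritin share was higher in deep HFD cells. The deepest 10% of HFD macrophages, 32 cells of which 30 had Cd9, held 32.4% of the class UMIs. Ferritin was 4.49% of their UMIs and 2.38% of those of the other cells. In LFD the deepest 23 cells held 19.5%, and their ferritin share was 1.73% against 1.72% in the rest. Among LFD resident macrophages it was 2.05% in the deepest 20 cells and 1.74% in the rest. With every cell thinned to 1000 UMIs, the HFD to LFD ratio in macrophages was 1.45 for both Fth1 (1.37 to 1.55) and Ftl1 (1.38 to 1.53), which is under the 1.5-fold line. The ratio of Hmox1 was 0.642 (0.481 to 0.857), that of Tfrc 0.703 (0.427 to 1.16) on 35 and 35 UMIs, and that of Slc40a1 0.483 (0.203 to 1.11) on 16 and 11 UMIs.

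Cell by cell, the ferritin share of UMIs shifted in HFD macrophages and its upper end stretched further. The median was 1.62% in LFD and 2.05% in HFD, the 95th percentile 2.57% and 4.94%, and the highest cell 4.97% and 11.6%. Above the LFD median lay 234 of 321 HFD macrophages (72.9%, 67.7 to 77.7), against 140 of 293 fibroblasts (47.8%) and 85 of 207 endothelial cells (41.1%). Among resident macrophages without Cd9 the median was 1.66% in LFD and 2.01% in HFD. With Cd9, HFD cells past the resident gate had a median of 3.72%, and those outside it 2.19% with a highest cell of 11.6%. In that last group the pooled share was 3.77% and the 95th percentile 6.45%, a spread skewed upwards. Cells of 1 library are not replicates, so these shares describe the libraries.

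**Figure D4:**
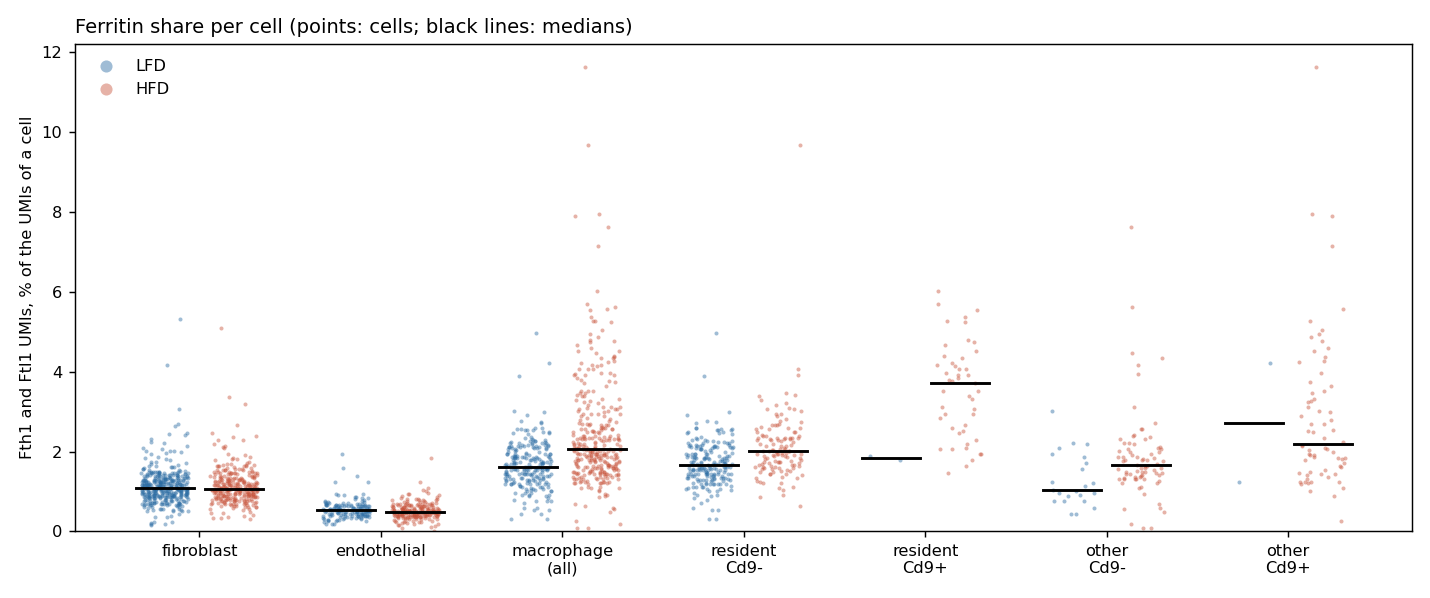
Ferritin share of UMIs (Fth1 and Ftl1 together, percent) in single cells, by class or macrophage subset and diet, with medians as black lines. HFD macrophages reach 11.6% and their median is 2.05% against 1.62% in LFD, while fibroblast medians are 1.09% and 1.07%.

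Other genes of the pathway were read from a list of 62. In macrophages 34 of them had enough UMIs, 10 were higher in HFD and 5 lower, beside 14.7% and 16.9% of all genes, so the lower count was near the background. The lower genes were led by Cd163, which takes up haemoglobin bound to haptoglobin, at 756 and 192 CPM (ratio 0.255, 0.230 to 0.282). Slc25a37, the mitochondrial iron importer mitoferrin, had a ratio of 0.526. The other 3, named after their values were seen, were the lysosomal channel gene Mcoln1 at 0.576, the iron importer gene Slc11a2 at 0.657 and the transferrin gene Trf at 0.661. Of the 7 antioxidant genes listed as targets of the transcription factor Nrf2, 6 had enough UMIs and 3 were higher, Srxn1 (12 and 113 UMIs, 4.78-fold), Prdx1 (2.13-fold, 1.98 to 2.30) and Txnrd1 (1.87-fold), while 0 were lower. Hmox1, which Nrf2 is also known to drive, had the ratio of 0.577 given above. The higher genes also included Alas1, the first enzyme of haem synthesis (2.91-fold, 2.03 to 4.26), and the endosomal ferrireductase Steap3 (1.76-fold, 1.23 to 2.58). Hp, haptoglobin, was 4.91-fold higher on 6 and 58 UMIs.

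In resident macrophages without Cd9, 1 of 24 list genes was higher, Hfe (1.71-fold, 1.34 to 2.19), and 1 was lower, Cd163 at 844 and 555 CPM (ratio 0.658, 0.590 to 0.734), beside 5.95% and 8.82% of all genes. Between HFD cells past the resident gate with and without Cd9, 10 of 22 list genes were higher and 5 lower, beside 20.6% and 20.1%. Cd163 stood at 64.6 against 555 CPM (ratio 0.116), while the lysosomal haem transporter Slc48a1 was 2.74-fold, the haem uptake receptor Lrp1 2.50-fold, Alas1 2.80-fold and Prdx1 2.01-fold higher. In fibroblasts 3 of 38 list genes were higher (Slc39a14, Hmox2 and Steap4) and 3 lower (Gclc, Scara5 and Slc39a8), beside 4.89% and 8.99%. Scara5, a receptor for ferritin, had a fibroblast ratio of 0.577. Endothelial cells had 2 of 29 higher (Fech and Hmox2) and 3 lower (Trf, Slc39a8 and Ireb2), beside 4.76% and 4.3%, with Trf at a ratio of 0.196.

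**Figure D5:**
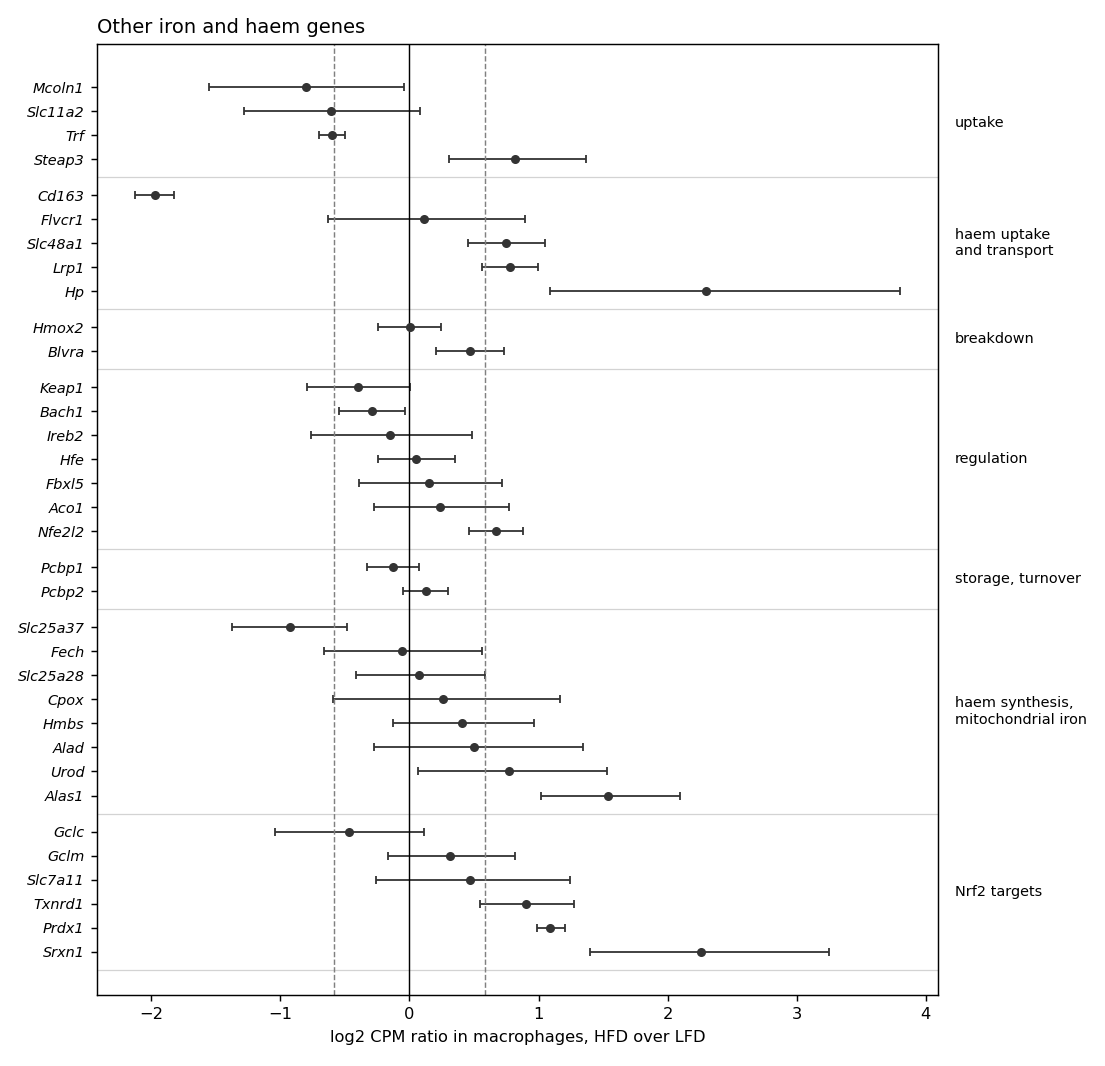
Ratio of HFD to LFD level (log2, with 95% counting intervals) of the 34 listed iron, haem and antioxidant genes with at least 50 UMIs in macrophages, grouped by role. Cd163 lies lowest at a ratio of 0.255, and Hp and Srxn1 lie highest at 4.91 and 4.78 on 6 and 12 LFD UMIs.

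Likeness was read over 14 points, 7 groups of cells in each of the 2 diets, on log2(CPM + 10) of 7952 genes, as a description only, since these points share 2 libraries and several are subsets of macrophages. Ftl1 was most like Ctsb, a lysosomal protease (Pearson r 0.976), and Fth1 most like Anxa4 (0.938). Slc40a1 was most like Cd209b and Lyve1, surface receptors of resident macrophages (0.959 and 0.926). Hmox1 was most like Dab2 (0.968), Blvrb like Tom1 (0.954) and Tfrc like Snx29 (0.948). Slc11a1 was most like Cd300ld (0.982) and Csf1r (0.979), and Cp like Efemp2, a matrix gene of fibroblasts (0.959). Between members, Fth1 and Ftl1 had an r of 0.893, Ftl1 and Hmox1 0.887, and Slc40a1 and Tfrc 0.742.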

How the data were processed

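Droplet single-cell RNA libraries of epididymal stromal vascular cells, 1 per diet, were read as deposited. The authors counted UMIs with Cell Ranger (3.0.2 in the file headers) on mm10, and the deposited values are raw counts with no normalization. Libraries held 7356278 and 8412325 UMIs. Of the listed gene IDs, 27645 were placed in GENCODE M21 (GRCm38).

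Barcodes with at least 200 genes were classed by raw UMI gates, and UMIs of each class were summed and divided by all its UMIs (CPM). Levels have exact Poisson intervals, ratios exact conditional binomial intervals and shares Clopper-Pearson intervals, all at 95%. No test across samples was possible. A ratio was counted from 1.5-fold between diets or subsets and from 2-fold between classes, for genes with at least 50 UMIs. Limits for 0 UMIs use 3 counts. Doublets were kept and called with Scrublet (20 and 26 barcodes, 1 and 0 of them macrophages) for an alternative. Thinning drew 1000 UMIs per cell and kept 225 and 320 macrophages that were deep enough.

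The genes, gates, marker and pathway lists were chosen with earlier results of these data known. The split of resident macrophages by Cd9 and the removal of 1 cell were added after these counts had been seen. Named beside the 8 genes were pathway genes past the fold in a class, up to 8 per class by size of the log2 ratio. Likeness took the 3 highest Pearson r per gene, of which the first or first and second are given. Ratios and intervals were tested on simulated data. Iron-responsive elements were searched in UTRs of the reference transcripts. Scrublet was run through scanpy 1.11.5, TMM scaling through edgeR 4.0.16 in R 4.3.3, intervals through scipy 1.17.1 and figures through matplotlib 3.10.9. Of the macrophage markers, 1 is not reported here.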

Additional observations from a re-analysis of the deposited data

Results flagged for a closer look

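Some genes differed between the libraries in opposite directions in 2 classes, and the difference between the classes was not tested. Ftl1 had an HFD to LFD ratio of 1.79 in macrophages and 1.75 in barcodes outside every gate, but 0.581 in T cells, where the HFD side had 61 UMIs over 21 cells. Thinned to 1000 UMIs per cell, the T cell ratio was 0.932 (0.585 to 1.44), so the opposite direction was not held at equal depth. What part RNA of other cell types had in the T cell ratio was not tested. Hmox1 had a ratio of 2.01 in barcodes outside every gate, on 27 and 79 UMIs, and of 0.577 in macrophages. Barcodes outside every gate are a mixed group, in which haemoglobin genes were at 109 and 2422 CPM. What part this mixture had in their Ftl1 and Hmox1 ratios was not tested. Cp had a ratio of 1.73 in endothelial cells, on 29 and 56 UMIs, and of 0.387 in macrophages. After thinning, the endothelial Cp ratio was 0.506 (0.105 to 2.13) on 6 and 4 UMIs.

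Barcodes with fewer than 200 genes, 56 in LFD and 27 in HFD, entered no comparison. Haemoglobin genes, the main iron-binding product of red cells, made up 86.7% of their UMIs in LFD and 73.9% in HFD.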

How the results depend on the processing

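No paired analysis was possible because there was 1 library per diet, and for the same reason no library could be left out. Of the 8 genes, 6 were past the fold between diets in macrophages, 6 in resident macrophages, 5 in Cd9+ non-resident macrophages (on 2 LFD cells), 4 in those with neither, 1 in endothelial cells and 0 in fibroblasts. The 6 genes higher in macrophages than in the other classes stayed within 1.5 times of that number under every alternative.

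Thinning to 1000 UMIs gave 1 in macrophages, 0 in resident, 0 in Cd9+ non-resident, 2 in those with neither, 0 in endothelial cells and 1 between Cd9+ and Cd9- non-resident cells (4 as reported). For the pathway list it gave 4 in macrophages (15 as reported), 2 in fibroblasts (6) and 1 in endothelial cells (5). Thinned sums were counted only from 50 thinned UMIs, so fewer genes were tested. The limits of the study (49 and 73 macrophages left) gave 3 in macrophages, 1 in resident, 0 in those with neither, 1 in fibroblasts, 0 in endothelial cells and 1 between non-resident cells. For the pathway list they gave 7 in macrophages and 0 in endothelial cells, and 0 LFD Cd9+ non-resident cells were left. A fold of 2 gave 3 in macrophages, 1 in resident, 3 in Cd9+ non-resident, 1 in those with neither, 0 in endothelial cells and 1 between non-resident cells, and 5, 1 and 1 pathway genes in macrophages, fibroblasts and endothelial cells. Weighting cells equally gave 3 in resident, 1 in Cd9+ non-resident, 1 in those with neither and 0 in endothelial cells, and 9 pathway genes in endothelial cells. Between Cd9+ non-resident and resident HFD cells, 5 were past the fold (3 as reported) with equal weights, with barcodes past more than 1 gate kept, and with gate counts doubled or divided by 2. Gate counts doubled gave 2 and divided by 2 gave 3 in Cd9+ non-resident cells, and the latter gave 1 between non-resident cells. Resident cells without Cd9, an alternative chosen after seeing the data, gave 1 between diets and 6 (2 higher, 4 lower) between Cd9+ non-resident and resident HFD cells.

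Some log2 ratios changed sign. Cp in endothelial cells was -0.058 with barcodes past more than 1 gate kept and -0.17 with equal weights. In resident macrophages Hmox1 was 0.051 under the study limits and Tfrc 0.0083 after thinning. In Cd9+ non-resident macrophages Fth1 was -0.49 with gates doubled, -0.20 after thinning and -0.35 with equal weights, and Hmox1 was -0.22 with gates doubled. Slc11a1, within the fold as reported, turned under the study limits to -0.68 in macrophages and -1.02 in resident macrophages, both past the fold. The cause was not tested. The macrophage log2 ratio ranged from 0.51 to 0.88 for Fth1, from 0.27 to 0.90 for Ftl1 and from -2.16 to -1.54 for Slc40a1.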
